A study of Mus musculus with 6 samples.

Results

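The genes described here are the receptors, bridging ligands and adaptors with which Sertoli cells bind and engulf dying germ cells: Mertk, Axl, Tyro3, Gas6, Pros1, Mfge8, Elmo1, Dock1 and Cd36. Every array probe that the platform annotation gives 1 of these 9 symbols was taken, which made 27 of the 45281 probes on the array. Of these, 13 probes for 7 genes were detected on at least 3 of the 6 arrays and were tested. The other 14 probes stayed below that filter, among them the only probe of Tyro3 and the only probe of Cd36.

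Most germ cells that begin spermatogenesis die by apoptosis, and Sertoli cells clear them together with the residual bodies that spermatids shed. A dying cell exposes phosphatidylserine on its surface, and bridging proteins tie this lipid to receptors of the engulfing cell. GAS6 and PROS1 are vitamin K-dependent bridges to the TAM receptor tyrosine kinases TYRO3, AXL and MERTK, MFGE8 is a bridge to integrins, and CD36 is a scavenger receptor. Inside the cell, ELMO1 and DOCK1 form an exchange factor for RAC1, the GTPase that drives the actin cup around the meal.

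Expression was measured on Illumina bead arrays in Sertoli cells of mice 6 weeks old on a C57B6J/129SvEv background, sorted by a Sox9-GFP label. The 3 conditional knockout (cKO) samples were Rb1 flox/- and carried Amh-Cre, in which the Amh promoter drives Cre recombinase in Sertoli cells. The 3 controls were also Rb1 flox/-, without Cre, so they had 1 functional copy of the retinoblastoma gene Rb1, and an effect of Cre itself and of the loss of Rb1 cannot be told apart. The labels do not tie an array to an animal, and the p-values below therefore describe the spread between samples that may be technical. Levels are normalised intensities on the log2 scale, differences are cKO minus control with the standard error (SE) of limma's fit, and p-values are adjusted over all 21805 tested probes.

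The deleted gene was lower in the cKO on both of its probes without passing the test: the difference was -1.22 ± 0.32 (SE, n = 3 and 3, adjusted p = 0.399) on ILMN_2679619 and -0.98 ± 0.34 (adjusted p = 0.668) on ILMN_2861644. On each of these probes every cKO array lay below every control array. Whether these probes lie in the deleted part of the transcript was not determined here. Across the array, 31 probes passed an adjusted p of 0.05, all of them higher in the cKO, which is 0.142% of the probes tested. That count was 0 with the replicate number as a block. It was 8, 2 and 15 without cKO replicate 1, 2 or 3, and 0 without any one of the controls. The first principal component of the tested probes (58.9% of the variance) set 2 arrays apart, cKO 1 at -113.9 and control 3 at 110.2, with the other 4 between -34.3 and 31.4. Of 17 tested Sertoli cell markers, 16 had a negative difference, with a median of -0.43, and none passed the test.

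The promoter windows of the receptors and the ligand whose levels are described first, and the pair of windows listed for Elmo1, are printed to show the sequence from which these genes start. They come from RefSeq on GRCm38.p6, whose table held all 9 genes in 10 windows, and each runs from 250 bases before to 50 bases after a transcription start. Capitals mark the GC box, GGGCGG or its reverse complement CCGCCC, a short motif bound by SP-family factors. Windows are written 5′ to 3′ on the gene's strand, at chr2:128698665-128698964 (+) for Mertk, chr7:25788684-25788983 (-) for Axl, chr8:13494486-13494785 (-) for Gas6, and chr13:20090257-20090556 (+) and chr13:20472740-20473039 (+) for Elmo1.
Mertk: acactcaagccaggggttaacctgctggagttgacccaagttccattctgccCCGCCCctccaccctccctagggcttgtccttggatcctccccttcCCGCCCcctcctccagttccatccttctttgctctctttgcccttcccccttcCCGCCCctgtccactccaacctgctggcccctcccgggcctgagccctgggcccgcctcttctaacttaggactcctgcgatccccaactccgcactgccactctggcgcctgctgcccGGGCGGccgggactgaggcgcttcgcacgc
Axl: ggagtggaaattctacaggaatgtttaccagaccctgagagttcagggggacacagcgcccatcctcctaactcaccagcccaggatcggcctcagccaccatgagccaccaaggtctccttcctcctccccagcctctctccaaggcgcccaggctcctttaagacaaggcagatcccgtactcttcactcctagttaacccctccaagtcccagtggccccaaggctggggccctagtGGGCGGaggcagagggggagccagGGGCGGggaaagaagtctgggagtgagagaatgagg
Gas6: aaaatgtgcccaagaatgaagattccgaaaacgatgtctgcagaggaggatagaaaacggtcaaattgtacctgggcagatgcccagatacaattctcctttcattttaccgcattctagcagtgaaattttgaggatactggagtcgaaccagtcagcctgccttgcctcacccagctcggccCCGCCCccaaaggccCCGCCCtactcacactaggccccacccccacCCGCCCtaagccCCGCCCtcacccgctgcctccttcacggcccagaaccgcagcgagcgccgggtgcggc
Elmo1 upstream window: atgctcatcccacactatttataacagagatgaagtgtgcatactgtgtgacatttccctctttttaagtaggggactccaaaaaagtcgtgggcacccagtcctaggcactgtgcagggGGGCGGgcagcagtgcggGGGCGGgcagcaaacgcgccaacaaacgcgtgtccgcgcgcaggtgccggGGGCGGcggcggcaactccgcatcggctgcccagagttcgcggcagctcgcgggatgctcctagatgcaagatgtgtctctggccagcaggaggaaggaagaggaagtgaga
Elmo1 downstream window: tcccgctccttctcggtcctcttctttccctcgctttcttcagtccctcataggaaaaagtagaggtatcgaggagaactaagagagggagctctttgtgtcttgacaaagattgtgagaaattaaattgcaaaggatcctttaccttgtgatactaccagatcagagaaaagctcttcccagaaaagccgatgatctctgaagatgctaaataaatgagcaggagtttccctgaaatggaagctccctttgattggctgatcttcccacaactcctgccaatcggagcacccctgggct

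A GC box was found in 9 of the 10 windows, all but the downstream Elmo1 window, against 35.7% of the 32851 windows in the table. The number of boxes ranged from 2 in Axl and Cd36 to 6 in Tyro3 among the windows that had any. The GC content of the windows ran from 43% in Cd36 to 73.3% in Tyro3, beside a median of 52.7% over all windows. RB1 restrains E2F transcription factors, so the E2F site was searched too, as TTTCCCGC, TTTCGCGC, TTTGCCGC or TTTGGCGC on either strand. None of the 10 windows held these letters, which occur in 2.26% of all windows. The 2 Elmo1 windows lie 382483 bases apart, and the upstream one is 60% GC and the downstream one 46%. These matches describe letters in 300 bases and say nothing of which factor is bound.

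Mertk, the TAM receptor best known for clearing photoreceptor debris in the eye and dying cells in the testis, was detected on all 6 arrays. In replicate order, here and below, its log2 levels were 8.75, 9.56 and 9.30 on the cKO arrays and 9.56, 10.01 and 9.96 on the controls. The groups met only at 9.56, where cKO 2 and control 1 lay. The difference was -0.64 ± 0.31 (95% interval -1.36 to 0.08, n = 3 and 3), or 64.3% of the control level, and did not pass the test (adjusted p = 0.766). The cKO array was lower in each same-numbered pair, by differences of -0.81, -0.44 and -0.66. In sorted cells measured in bulk, fewer cells of a type and less RNA in each cell cannot be told apart.

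Axl, the TAM receptor that binds GAS6 most tightly, had log2 levels of 12.74, 13.15 and 12.69 on the cKO arrays and 13.17, 13.53 and 13.37 on the controls with the RefSeq probe ILMN_2651715. Every cKO array lay below every control array, which held for 4.01% of all tested probes. The difference of -0.50 ± 0.26 (95% interval -1.11 to 0.12) did not pass the test (adjusted p = 0.766). The other Axl probe, ILMN_2557510, was designed on a cDNA clone and was dim, at 6.14, 5.58 and 5.06 on the cKO arrays and 5.16, 5.45 and 4.83 on the controls. It pointed the other way, with a difference of 0.44 ± 0.35 (adjusted p = 0.766) that came to 0.01 without cKO 1 and control 3. The probes of Axl thus disagreed in sign, and neither difference passed the test.

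Tyro3, the TAM receptor typical of neurons, was read by 1 probe that was detected on 2 arrays, cKO 3 and control 3. Its log2 levels were 4.48, 4.53 and 8.50 on the cKO arrays and 5.02, 4.60 and 9.53 on the controls. The split ran between replicate 3 and the rest, not between genotypes: scanner intensity was 408 on cKO 3 and 771 on control 3, and 46.8 to 60.3 on the other arrays. The mean intensity rested on 36 to 47 beads per array, and its bead-to-bead standard error was at most 0.0879 log2 units. Fitted without the detection filter, the genotype difference was -0.54 with a 95% interval of -5.27 to 4.18 (adjusted p = 0.967), too wide to show a change in either direction.

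Gas6, the bridging ligand that activates all TAM receptors, had the smallest p of the 13 tested probes. Its log2 levels were 10.75, 12.53 and 12.18 on the cKO arrays and 12.86, 13.21 and 12.76 on the controls. The cKO arrays all lay below the controls, and cKO 1 lay 1.43 below the next array. The difference was -1.13 ± 0.47 (95% interval -2.23 to -0.02), 45.8% of the control level, with an unadjusted p of 0.0473 and an adjusted p of 0.766. It was the 1 tested member probe with an unadjusted p under 0.05, where 1.76% of all tested probes were lower at that level. By pair the differences were -2.11, -0.69 and -0.58. Without cKO 1 alone the difference was -0.59. Bead-to-bead standard errors of 0.0207 to 0.0406 log2 units were far smaller than the SD of 0.94 between the cKO arrays.

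Pros1, protein S, the other vitamin K-dependent TAM ligand and also an anticoagulant of plasma, had log2 levels of 10.65, 11.40 and 11.71 on the cKO arrays and 11.23, 11.77 and 12.02 on the controls. The groups overlapped, while each cKO array was below its same-numbered control, by differences of -0.58, -0.37 and -0.31. The difference was -0.42 ± 0.37 (95% interval -1.29 to 0.44, adjusted p = 0.770). It turned to 0.05 without cKO 1 and control 3.

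Mfge8, the lactadherin that links phosphatidylserine to integrins, differed little between the groups. With the probe ILMN_3133448 its log2 levels were 14.12, 14.03 and 13.91 on the cKO arrays and 13.99, 14.39 and 13.99 on the controls. The difference was -0.10 ± 0.25, and its 95% interval of -0.69 to 0.50 leaves room for changes of that size. The probe ILMN_2771034, designed on another transcript record, read 12.76, 13.18 and 13.09 against 12.92, 13.39 and 12.93, a difference of -0.07 ± 0.27 (95% interval -0.71 to 0.57). Both probes turned to a positive difference with median scaling, at 0.10 and 0.13, and with the deposited log2 values, at 0.07 and 0.11.

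Dock1, the catalytic partner of ELMO1, had 4 probes, of which ILMN_2885196 was tested. Its log2 levels were 4.96, 6.32 and 6.73 on the cKO arrays and 6.55, 6.95 and 7.36 on the controls, and it was not detected on cKO 1. The difference was -0.95 ± 0.49 (95% interval -2.09 to 0.19, adjusted p = 0.766), with -1.59, -0.63 and -0.63 by pair. Without cKO 1 it was -0.43. The dim probe ILMN_1238721, designed on a cDNA clone, went the other way: its scanner intensity was 77.1, 66.2 and 59.7 on the cKO arrays, of which 2 were detected, and 48.1, 49.6 and 48.6 on the controls, of which none was. That probe's difference, fitted without the detection filter, was 0.68 ± 0.22 (95% interval 0.12 to 1.24). Limma's test gave it an unadjusted p of 0.0267 and an adjusted p of 0.897. The remaining 2 Dock1 probes were each detected on 1 array, a control.

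**Figure D1:**
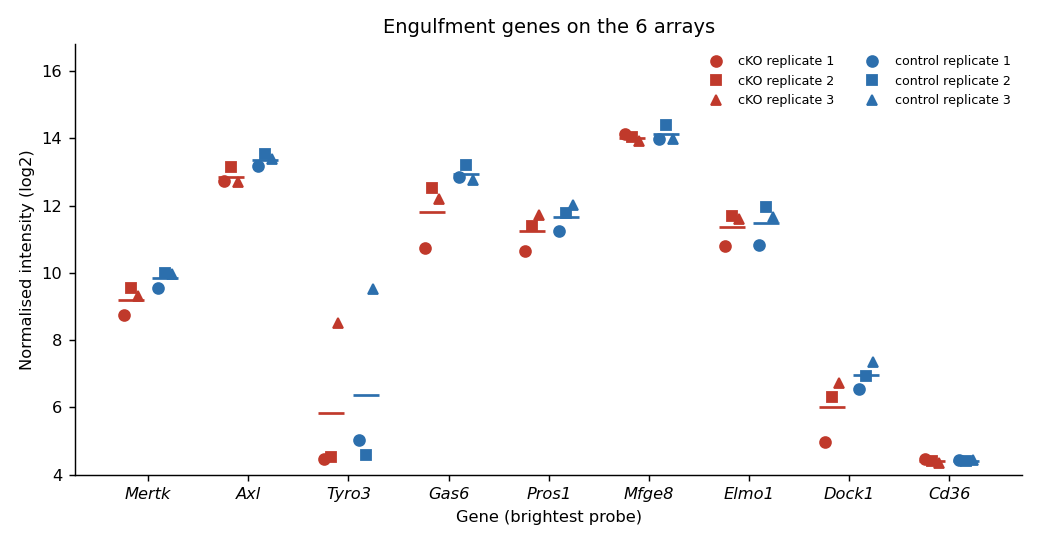
Normalised log2 intensity (vertical axis) of the brightest probe of each of the 9 genes on the 3 cKO arrays (red) and the 3 control arrays (blue), with marker shape for the replicate number and a short line for the group mean. Gas6 and Dock1 show cKO replicate 1 well below the rest, Tyro3 is high on the replicate 3 arrays of both groups alone, and Cd36 stays near 4.4 throughout. Heights of different genes come from different probes and cannot be compared.

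Elmo1 had 14 probes, more than any other gene of the set. Their patterns differed between the transcript records they were designed on and also within each record. The probe ILMN_2658407, on record NM_198093, was detected on all 6 arrays, at 10.81, 11.70 and 11.59 on the cKO arrays and 10.83, 11.95 and 11.65 on the controls. Its difference was -0.11 ± 0.39 (95% interval -1.04 to 0.81, adjusted p = 0.938), and it turned to 0.06 with median scaling, 0.03 with the deposited log2 values, and 0.17 and 0.12 without cKO 1 or control 2. The other probe on that record, ILMN_1237174, was detected on no array.

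Record NM_080288 had 12 probes. Of these, 11 were detected on control 3 and had their highest level there, between 6.43 and 8.34, while they lay between 4.30 and 5.76 on the other 5 arrays. The gap from control 3 to the next array ran from 0.77 to 3.44. An example is ILMN_2750265, at 4.30, 4.37 and 4.66 on the cKO arrays and 4.46, 4.38 and 8.11 on the controls. For 4 of the 11, control 3 was the only array with a detected signal, and the remaining NM_080288 probe, ILMN_1235672, was detected on none. The 4 tested probes of this record had differences of -0.83 to -0.26, which became -0.05 to 0.33 without control 3. These 11 probes read the same gene in the same sample and are not replicates of each other, so the pattern rests on 1 array.

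**Figure D2:**
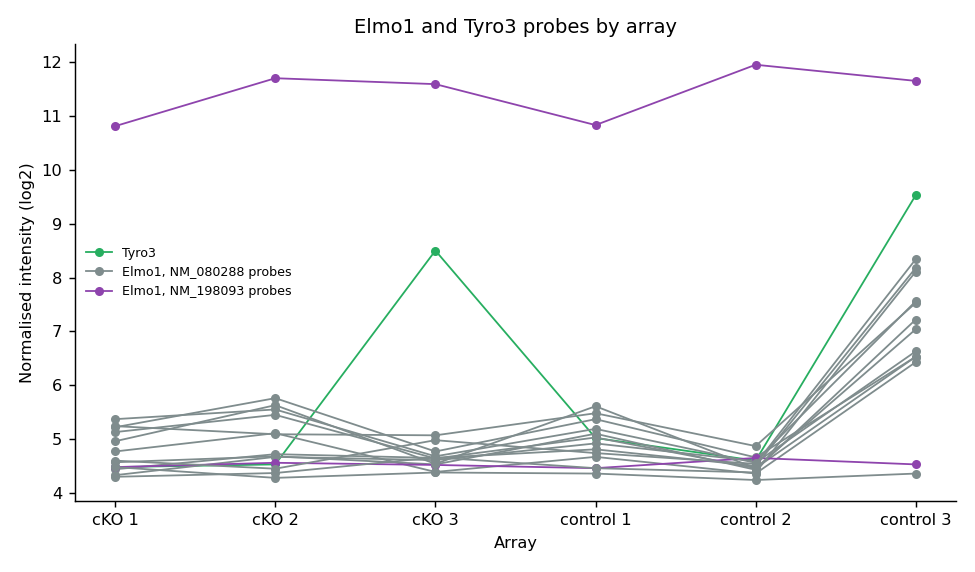
Normalised log2 intensity of every Elmo1 probe and of the Tyro3 probe on each of the 6 arrays, with a line joining the values of 1 probe. Of the 12 probes on the Elmo1 record NM_080288 (grey), 11 leave the floor on control 3, Tyro3 (green) leaves it on cKO 3 and control 3, and the bright NM_198093 probe (purple) lies between 10.81 and 11.95 on all arrays.

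The pattern of those Elmo1 probes and of Tyro3 was shared by many other probes on the array. Over the whole array, 2326 probes were detected on control 3 alone, against 167 to 354 for each of the other 5 arrays. A further 779 were detected on cKO 3 and control 3 and on no other array, which is Tyro3's pattern, against 18 to 143 for any other pair of arrays. On control 3, 972 probes lay over 4-fold above all other arrays, and on cKO 1, 435 lay over 4-fold below all others. Calr, calreticulin, an "eat me" signal on dying cells, was one of the former, with 11.71 on control 3 and 4.47 to 6.21 elsewhere; it was chosen after its values were seen. The part that the RNA or hybridisation of these arrays has in the Tyro3 and Elmo1 values was not tested.

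**Figure D3:**
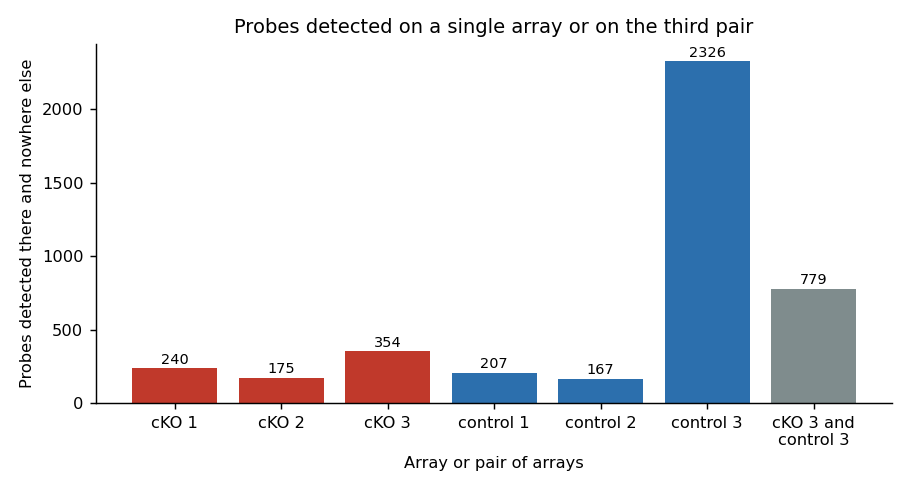
Number of probes (vertical axis) that were detected on 1 array and on no other, for each array, and on cKO 3 and control 3 together and nowhere else (grey). Control 3 had 2326 such probes, while the other arrays had 167 to 354.

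Cd36, the scavenger receptor that binds oxidised lipids and takes up fatty acids, was not detected on any array. Its log2 levels ran from 4.36 to 4.48 and its scanner intensities from 37.2 to 47.0, which is background on these arrays. No difference can be read from this probe, and a low level cannot be told from a probe that does not work.

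Taken over the 7 genes by their brightest tested probe, all differences were negative, from -1.13 for Gas6 to -0.10 for Mfge8, with a median of -0.50, except that Elmo1 and Mfge8 turned positive with median scaling and with the deposited log2 values. The median was -0.27 and -0.30 in those settings and -0.23 without cKO 1 and control 3. Over all 12277 tested genes the median difference was 0.12 and 38.7% were negative. By probe, 12 of the 13 were negative, beside 43.0% of all tested probes. Of these 12, 4 were NM_080288 probes of Elmo1 alone, at -0.83 to -0.26, and at -0.05 to 0.33 without control 3. For 2 of the 13, every cKO array lay below every control array, which held for 4.01% of all tested probes. None of the 13 probes passed limma's test at an adjusted p of 0.05, and 1 had an unadjusted p under 0.05.

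By array, the 7 genes lay at a median of -1.03 from the control mean on cKO 1, at -0.27 on cKO 2 and at -0.22 on cKO 3, while the controls lay at -0.28, 0.17 and 0.12. Array cKO 1 was the lowest of the 6 for 5 of the 7 genes, and cKO 3 for the other 2, which were Axl and Mfge8. In each same-numbered pair the cKO median was thus below that of its control, while cKO 2 and cKO 3 lay above the lowest control, control 1. With 1 array left out, the median of the 7 differences was -0.41 without cKO 1, where 6 of 7 were negative, and -0.41 without control 2, where 5 of 7 were. It was -0.64 without cKO 2, -0.65 without cKO 3, -0.64 without control 1 and -0.49 without control 3, with all 7 negative in each. The Sertoli markers summed to linear normalised intensities of 76674 to 83899 on the cKO arrays and 84374 to 95033 on the controls. The part of these markers in the negative differences of the brightest tested Mertk, Axl, Gas6 and Dock1 probes, none of which passed the test, was not tested.

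**Figure D4:**
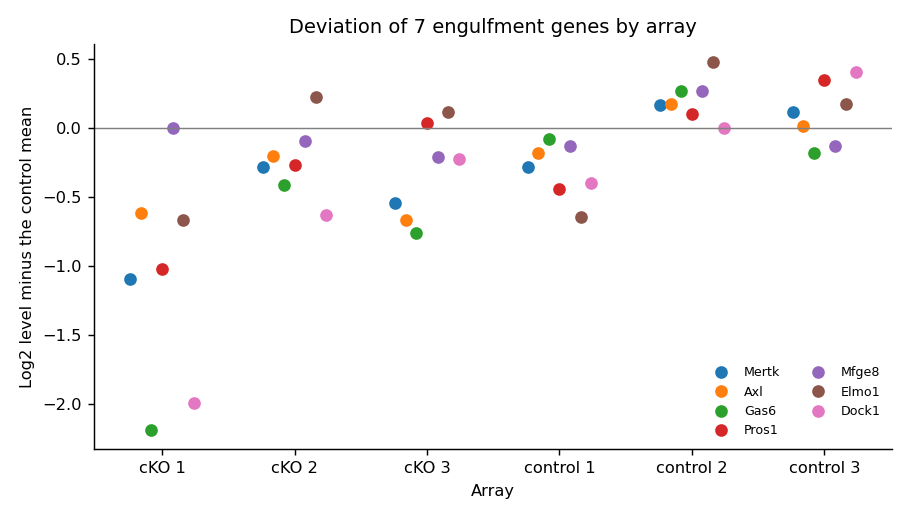
Log2 level minus the control mean (vertical axis) of the brightest tested probe of 7 genes on each array, 1 point per gene, with a line at 0 for the control mean. Gas6 and Dock1 lie near -2 on cKO 1, and the points of the other cKO arrays lie between -0.76 and 0.23.

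**Figure D5:**
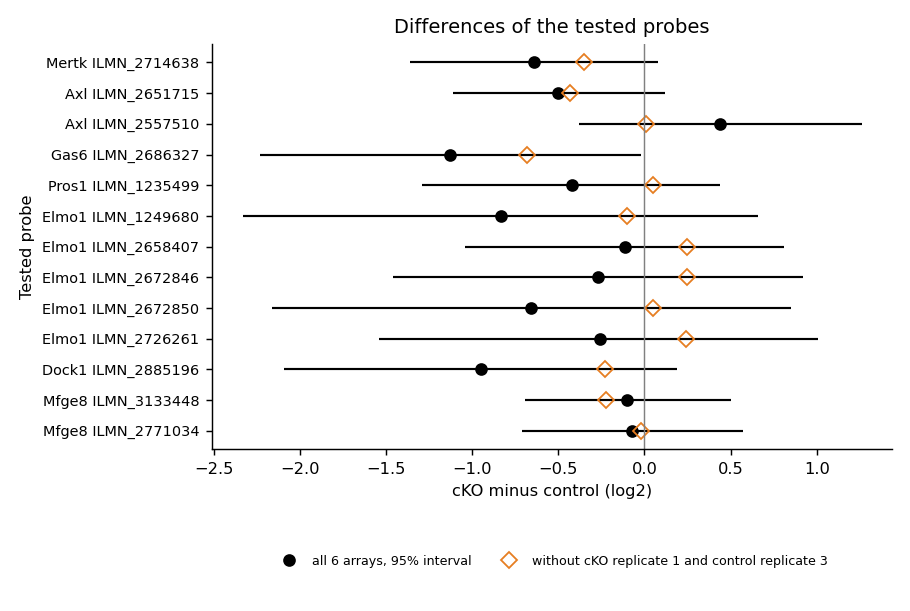
Difference between cKO and control (horizontal axis, log2) for the 13 tested probes, with the 95% interval of limma's fit over all 6 arrays (black) and the difference without cKO replicate 1 and control replicate 3 (orange diamonds). The interval of Gas6 alone ends below 0, at -0.02, and the diamonds of Pros1, of 4 Elmo1 probes and, at 0.01, of the dim Axl probe lie above 0.

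The pathway around these genes was followed in 5 lists of 133 genes, none of them among the 9, of which 102 had a tested probe. None of the 102 genes passed limma's test, while an unadjusted p under 0.05 was reached by 10 that were higher and 1 that was lower. Over all 12277 genes, by their brightest tested probe, the corresponding shares were 5.96% higher and 1.81% lower. The 10 include Trem2, Lpl and Abcg1, which met the detection filter only through the cKO arrays, so the count cannot be set plainly against those shares. Of the 36 other receptors and bridges for dying cells, 20 were tested, 16 of them positive, and the median was 0.40. Over all 12277 tested genes the median difference was 0.12, and 38.7% were negative. Timd2, a member of the TIM receptor family, read 6.83, 6.08 and 5.71 on the cKO arrays and 4.45, 4.46 and 5.67 on the controls, a difference of 1.35 ± 0.45 (adjusted p = 0.631). Trem2, a lipid receptor of macrophages and microglia, read 8.11, 5.63 and 5.73 against 4.57, 4.53 and 4.50 and was not detected on the controls. Its cKO mean was at least 2.74-fold the control mean, and its difference did not pass the test (adjusted p = 0.619). That bound rested on cKO 1 and was 1.56-fold without it, and the difference fell from 1.96 to 1.15. Sirpa, the receptor for the "don't eat me" signal CD47, read 7.66, 6.85 and 6.39 against 5.95, 6.06 and 5.13 (difference 1.25 ± 0.42, adjusted p = 0.632). For these 3 genes, picked by their small p, the groups did not overlap, by only 5.71 against 5.67 for Timd2. Over the array, 8.04% of tested probes had every cKO array above every control. This list's median was 0.13 without cKO 1 and control 3.

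Genes of the machinery downstream of the receptors were near 0 as groups. Of 27 tested genes of engulfment signalling and actin, 11 had positive and 16 negative differences, with a median of -0.09. Pik3r1, a regulatory subunit of PI3 kinase, read 6.82, 7.38 and 6.97 on the cKO arrays and 7.55, 7.83 and 7.86 on the controls, a difference of -0.69 ± 0.27 (adjusted p = 0.745), and its other tested probe gave -0.69 as well. Elmo3, a relative of ELMO1, had a difference of 0.71 ± 0.39 and its other probe 0.05. For Crk, the adaptor upstream of DOCK1, the brightest probe gave -0.59 ± 0.33 while its others gave 0.54 and 0.51. Of 28 tested genes of phagosome maturation, 17 were negative, with a median of -0.10. The 3 with the smallest p were Dnase2a, the lysosomal nuclease that degrades the DNA of engulfed cells, at -0.63 ± 0.32, and Vps33a and Vps18, subunits of the tethering complexes that fuse phagosomes with lysosomes, at -0.53 ± 0.28 and -0.51 ± 0.31 (adjusted p = 0.766 for each).

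In the list of genes for carboxylation of the TAM ligands and shedding of the receptors, which also held Proc and Procr, 7 of 11 differences were positive. Their median was 0.15, beside 0.12 over all tested genes, of which 38.7% were negative. Vkorc1, which recycles the vitamin K that GAS6 and PROS1 need for their lipid-binding domain, read 12.02, 12.06 and 11.75 on the cKO arrays and 11.15, 11.49 and 10.96 on the controls. Its groups did not overlap, the difference was 0.74 ± 0.27 (adjusted p = 0.685), and its other probes gave 0.92 and 0.83. Calu, calumenin, an inhibitor of the carboxylase, had a difference of -0.63 ± 0.54, with -0.42 on its other probe. Proc, protein C, had one of 0.97 ± 0.53, and its other probe gave 0.22. The former was 0.45 without control 3.

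Lipid sensing and efflux, the tasks that follow a meal of membranes, had 16 tested genes, 11 of them positive, with a median of 0.37, which was 0.15 without control 3. Lpl, lipoprotein lipase, read 8.34, 7.13 and 6.92 on the cKO arrays and 4.42, 4.48 and 4.57 on the controls, where it was not detected. Its cKO mean was at least 5.36-fold the control mean (adjusted p = 0.0618), and its other probe was below the filter. The tested Lpl probe passed with median scaling (adjusted p = 0.050) and when 1 probe per gene was tested (adjusted p = 0.0241), within a range of 0.0241 to 0.36 over its alternatives. Like Trem2 and Abcg1, Lpl was detected on the 3 cKO arrays alone. These genes thus met the detection filter only through the group in which they were high, which their p-values do not take into account. Fabp3, a fatty acid binding protein, read 9.11, 7.64 and 8.90 against 6.64, 6.90 and 7.37, a difference of 1.58 ± 0.44 (adjusted p = 0.440). Abcg1, a cholesterol exporter, had a cKO mean at least 1.52-fold the control mean, with no control array above background, and did not pass the test (adjusted p = 0.594).

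Markers of other testis cells stood on the same side as these receptor and lipid genes. For comparison, 38.7% of all 12277 tested genes had a negative difference, and their median was 0.12. Macrophage and leukocyte markers were positive in 11 of 12 tested genes, with a median of 0.69, and their summed level was 9422 to 9853 on the cKO arrays and 7398 to 10891 on the controls. Of the 21 markers on the array, 10 were detected on all 6 arrays by at least 1 probe, among them Cd74, the invariant chain of MHC class II (difference 1.70), H2-Aa (1.35), Laptm5 (1.13) and Mrc1, the mannose receptor (-0.83). A further 4, Csf1r, Lyz2, Cd14 and C1qc, were detected on cKO arrays only, and 4, Ptprc, Itgam, Tyrobp and Ms4a7, on no array with any probe. By their brightest probes, Csf1r, Lyz2 and Cd14 were detected on 2 cKO arrays each and C1qc on 1, and none of them was tested. Endothelial markers were positive in 9 of 9, with a median of 1.13, and summed to 1831 to 4290 on the cKO arrays against 512 to 841 on the controls. The brightest of them on each cKO array was the Robo4 probe ILMN_2942011, at 11.46, 9.96 and 10.22 against 6.97, 7.32 and 6.29 on the controls. Its difference was 3.69, while the other tested Robo4 probes gave 0.23 and 0.31, so the sums lean on a probe that those do not match. Of the 12 on the array, 7 were detected on all 6 arrays, namely Pecam1, Cdh5, Tek, Esam, Robo4, Vwf and Cd34, and Kdr on none. Peritubular myoid markers were positive in 5 of 6, with sums of 7998 to 14685 against 5213 to 7307, and Leydig cell markers in 4 of 5, with sums of 2367 to 8659 against 1239 to 3054. Acta2, the brightest myoid marker on each cKO array, had a difference of 1.81, and its other tested probes gave 0.18 and 1.90. Germ cell markers were positive in 9 of 11 genes for spermatogonia, 9 of 11 for spermatocytes and 10 of 13 for spermatids. Their sums overlapped between the groups. They were 4848 to 5941 on the cKO arrays against 3869 to 4863 on the controls for spermatogonia, and 64732 to 76263 against 48553 to 72869 for spermatocytes. For spermatids they were 112722 to 141810 against 100396 to 140612, and all 13 spermatid markers were detected on all 6 arrays. None of these markers passed the test, 5 of the pathway genes are also in a marker list, and the part of such cells in the values of Trem2, Lpl and Abcg1 was not tested. Star, counted for Leydig cells, and Ret, counted for spermatogonia, were detected on the 3 cKO arrays alone. They thus met the detection filter only through the group in which they were high.

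The genes whose levels ran most closely with those of Gas6 over the 6 arrays, by Pearson's r on 1 probe per gene, were Gm2a (0.999), Slc25a43 (0.996), Rasgrf2 (0.992), Lratd1 (0.990) and Ring1 (0.990). Gm2a, the activator protein of lysosomal ganglioside breakdown, read 12.82, 14.11 and 13.82 on the cKO arrays and 14.34, 14.55 and 14.27 on the controls, so it too was lowest on cKO 1. For Mfge8 they were Rabep2 (0.989), Tbx6 (0.980), and Angptl1, Rap2b and Lrba (0.977 each), all with their highest level on control 2. These values describe 6 arrays that share the normalisation and the departures of cKO 1 and control 3, and with 12277 genes to choose from, values near 1 are the highest of many.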

How the data were processed

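Per the file headers, the deposited scanner tables hold each probe's mean intensity, bead spread, bead number and a detection score from 0 to 1, a fraction that rises with signal; a score over 0.95 was taken as detected. The deposited series table holds log2 values, which were found to be log2 intensities scaled to each array's upper quartile and centred per probe. The submitters' processing notes name BeadStudio with no version. All 45281 probes were joined across tables through these values. Another 24 columns were not used.

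Normalisation used limma's neqc (version 3.58.1, in R 4.3.3) with an offset of 16, and probes detected on at least 3 arrays were tested with lmFit and eBayes, two-sided, with Benjamini-Hochberg adjustment. The script was tested on simulated data. A bound ("at least N-fold") sets the cKO mean against the control mean, with each control value raised to that array's lowest detected signal where it was below it. Such a bound takes no account of the spread between arrays.

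The members and lists were chosen with earlier results of these data known. Named genes were all member and Rb1 probes, from each list any called gene and the 3 with the smallest p, and the 5 most like Gas6 and Mfge8. Median bead number was 43 to 44 per probe, and the number of arrays limits the precision. Deviations of same-numbered arrays correlated at 0.262, 0.410 and 0.473. The differences by pair rest on these values alone, as the labels do not say what the numbers share. The main fit compared the groups without pairing, and its SEs, intervals and p-values are unpaired. The replicate number entered a fit only as the block among the alternatives. The 15 alternatives are in the closing section.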

Additional observations from a re-analysis of the deposited data

How the results depend on the processing

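No member probe passed the threshold under any of the 15 alternatives, and the lowest adjusted p among them was 0.275. Of 184 member values under alternatives, 165 kept their direction and 19 reversed; Mertk, both Axl probes, Gas6, Elmo1 ILMN_1249680 and Dock1 ILMN_2885196 never reversed. With median scaling, Elmo1 ILMN_2658407 was 0.06, Mfge8 ILMN_3133448 0.10 and Mfge8 ILMN_2771034 0.13; with the deposited log2 values they were 0.03, 0.07 and 0.11. Without cKO replicate 1, Elmo1 ILMN_2658407 was 0.17 and Mfge8 ILMN_2771034 0.06. Without control replicate 2, Elmo1 ILMN_2658407 was 0.12, Mfge8 ILMN_3133448 0.04 and ILMN_2771034 0.09. Without control replicate 3, Elmo1 ILMN_2672846, ILMN_2672850 and ILMN_2726261 were 0.24, 0.01 and 0.33. Without cKO replicate 1 and control replicate 3 together, those were 0.25, 0.05 and 0.24, Elmo1 ILMN_2658407 was 0.25, Pros1 0.05 and Calu 0.07. With arrays left out, the ranges were -0.65 to 0.05 for Pros1, -0.43 to 0.25 for Elmo1 ILMN_2658407, -0.70 to 0.25 for ILMN_2672846, -1.28 to 0.05 for ILMN_2672850, -0.71 to 0.33 for ILMN_2726261, -0.22 to 0.04 for Mfge8 ILMN_3133448, -0.15 to 0.09 for ILMN_2771034 and -1.14 to 0.07 for Calu. The cause of these reversals was not tested. The probes called higher over the whole array numbered 56 with 1 probe per gene, 1 with no filter, 13 with no background correction, 9 with normexp (offset 50), 0 to 15 with 1 array left out and 6 without cKO replicate 1 and control replicate 3. With the replicate block, none was called, the smallest adjusted p was 0.0529, and an unadjusted p under 0.05 was reached by 1975 higher and 1282 lower probes; the block changed no other call. The pathway lists had 1 called gene, Lpl, with median scaling and 1 with 1 probe per gene.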

Other observations

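The probes most like Tyro3 and the Elmo1 probe ILMN_2750265 over the 6 arrays were looked up after their values were seen. For Tyro3, Pearson's r was 0.994 with Pdk3, 0.988 with Emd, 0.987 with Fam71f1, and 0.986 with Mtmr2 and Naa40. Emd, the inner nuclear membrane protein emerin, had log2 levels of 5.38, 4.93 and 7.84 on the cKO arrays and 5.48, 5.01 and 8.03 on the controls, so replicate 3 was high in both groups. Naa40, an acetyltransferase of histones, read 9.18, 9.32 and 9.98 against 9.19, 9.17 and 10.33. For the Elmo1 probe, r was 0.998 with Ubxn7 and Rock1 and 0.997 with Hadh, Gnai1 and Eef2. The Eef2 probe ILMN_1239110, for the translation elongation factor that all cells use, read 4.96, 5.10 and 5.18 on the cKO arrays and 5.04, 5.27 and 11.70 on the controls. Rock1, a kinase of the actin cytoskeleton, read 5.82, 5.77 and 5.93 against 5.96, 5.81 and 8.31. These values are descriptions of 6 arrays, with no test.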
